A study of Mus musculus with 6 samples.

Results

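The transcription factors that give hepatocytes their identity were examined as a set of 9 genes in liver RNA of mice treated with vehicle or FGF19. The members are Hnf4a, Foxa1, Foxa2, Foxa3, Onecut1, Prox1, Cebpa, Cebpb and Cebpd. They were chosen by gene name for their role in the liver, with earlier results of these data known. They are 9 of the 23284 genes listed in the count files. The low-count filter left 12559 genes for testing, and 9 of 9 members passed it. Both groups were C57BL/6 mice aged 8 weeks that had been fasted overnight and stayed without food during treatment, and the animal methods of the study state male mice. The Vehicle group (3 mice) received vehicle, and the FGF19 group (3 mice) received FGF19 at 1 mg/kg, each for 6 h. FGF19 is the human counterpart of mouse FGF15, a gut hormone released after a meal. The question of the comparison was which liver mRNAs differ after FGF19, and here it is asked of these 9 regulators.

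These factors form a network in which each binds the promoters or enhancers of many liver genes and, often, of the other factors. HNF4A is a nuclear receptor that activates genes of lipoprotein assembly, coagulation and bile acid synthesis. The FOXA proteins are forkhead factors that open chromatin at liver enhancers in development, and ONECUT1, also called HNF6, is a cut-homeodomain factor that activates Foxa2 and Hnf4a. PROX1 is a homeodomain factor that acts with HNF4A as a co-repressor, and outside hepatocytes it specifies lymphatic endothelium. The C/EBP proteins are basic leucine zipper factors, of which C/EBPα is best known for metabolic genes of the resting hepatocyte, and C/EBPβ and C/EBPδ for the acute phase response.

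Onecut1 is the member on which the comparison turned, so the 250 bases before its start site are shown, together with the promoter windows of Foxa2 and Hnf4a that hold the letters of the ONECUT1 motif. The sequences are RefSeq promoter windows, placed by exact match in mm9, the genome build of the count files. Windows of 300 bases (250 before and 50 after a start site) were found for 8 members, 12 windows in all. Cebpd had no entry. Capitals mark matches to the 6 motifs searched on both strands, which were TTGCNNAA (the C/EBP motif), TGACG (the core of the cyclic AMP response element), TTCNNNGAA (the STAT motif), TGTTTAC (the FOXA motif), ATTGATT (the HNF6 motif) and CAAAGTCCA (the HNF4 motif).
Onecut1, chr9:74709478-74709727, plus strand: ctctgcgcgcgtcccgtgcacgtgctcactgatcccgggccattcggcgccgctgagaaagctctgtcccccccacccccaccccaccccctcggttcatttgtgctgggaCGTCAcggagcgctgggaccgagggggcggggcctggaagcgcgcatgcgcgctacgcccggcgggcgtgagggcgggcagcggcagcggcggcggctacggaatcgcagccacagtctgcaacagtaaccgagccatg
Foxa2, chr2:147872706-147872955, minus strand: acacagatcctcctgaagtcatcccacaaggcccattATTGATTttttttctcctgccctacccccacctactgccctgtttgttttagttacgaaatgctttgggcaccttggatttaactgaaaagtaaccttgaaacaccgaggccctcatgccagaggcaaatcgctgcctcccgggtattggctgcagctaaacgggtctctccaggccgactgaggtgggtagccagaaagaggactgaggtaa
Hnf4a upstream promoter, chr2:163332343-163332592, plus strand: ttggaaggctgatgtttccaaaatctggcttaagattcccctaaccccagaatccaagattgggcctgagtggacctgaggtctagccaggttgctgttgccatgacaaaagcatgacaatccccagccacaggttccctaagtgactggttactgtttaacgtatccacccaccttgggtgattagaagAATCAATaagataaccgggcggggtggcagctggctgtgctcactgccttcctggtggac

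The Onecut1 window holds 1 match, the cyclic AMP element core on the minus strand from -139 to -135 relative to the start site. The HNF6 letters were found in 2 of the 12 windows, from -213 to -207 at Foxa2 and from -60 to -54 at the upstream promoter of Hnf4a, against 2.86% of 32851 windows in the whole table. The upstream Hnf4a promoter, known to be active in pancreas and fetal liver, starts 40331 bases before the first counted exon. The counted exons leave out 661 exon bases of Hnf4a in GENCODE vM1, and transcripts of either promoter are counted through the exons from 163372924 onward. The cyclic AMP element core was in 3 of the 12 windows (20.8% of all windows hold it), those of Onecut1, Cebpb, with 3 matches, and Foxa2, from 2 to 6 after the start site and so outside the bases printed. Foxa1 held 1 FOXA match (3.65%). The C/EBP, STAT and HNF4 letters were found in none of the 12 windows, where 10.8%, 8.3% and 0.475% of all windows hold them. These matches describe letters, not binding.

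Of the 9 members, 1 passed the test, Onecut1, which fell after FGF19. Expression was tested on raw counts with edgeR's quasi-likelihood test, with p-values adjusted by the Benjamini-Hochberg method over all 12559 genes and calls made at an adjusted p under 0.05. At this threshold 2.84% of the genes tested were lower and 4.56% were higher, and among the members it was 1 of 9 and 0 of 9. At an unadjusted p under 0.01 the counts were also 1 lower and 0 higher, against 4.98% and 6.2% of all genes. At an unadjusted p under 0.05, 4 members were lower (Onecut1, Hnf4a, Cebpa and Foxa3) and 0 were higher, against 11.3% and 11.6% of all genes. DESeq2 called the same member and no other. In 3 members every FGF19-treated mouse lay below every Vehicle mouse (13.8% of all genes), and in 0 members every FGF19-treated mouse lay above (14.5% of all genes). The median log2 fold change of the 9 members was -0.26, beside a median of -0.00076 over all genes tested.

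**Figure D1:**
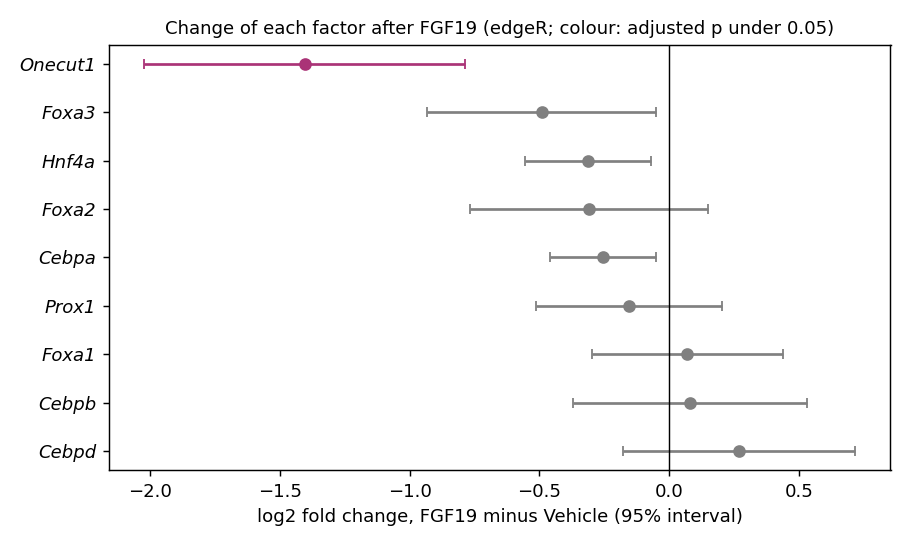
Log2 fold change of each member (FGF19 minus Vehicle, x axis) with its 95% interval from edgeR's quasi-likelihood fit, 3 mice a group. Onecut1 at -1.40 is the member in colour (adjusted p under 0.05), and the intervals of Foxa1, Foxa2, Prox1, Cebpb and Cebpd cross 0.

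Onecut1 lies on chromosome 9 of mm9 from 74709728 to 74737454, with 2 counted exons. Its level was 6.81, 3.55 and 6.9997 CPM (counts scaled to library size with TMM factors) in Vehicle replicates 1, 2 and 3, and 2.42, 1.75 and 2.40 CPM in FGF19 replicates 1, 2 and 3. The groups did not overlap, and Vehicle replicate 2 was the lowest of its group. The mean was 5.79 ± 1.94 CPM in the Vehicle mice (SD, n = 3), and in the FGF19 group it was 2.19 ± 0.383 CPM (SD, n = 3), a fitted level 2.65-fold lower. The log2 fold change was -1.40 (standard error 0.275, 95% interval -2.02 to -0.79) with an adjusted p of 0.0159 in edgeR's quasi-likelihood test. These values rest on 143, 67 and 141 reads in the Vehicle libraries and 52, 38 and 53 reads in the FGF19 libraries, so Onecut1 is the most thinly counted of the 9. Mates were counted separately, so both mates of a pair can be among these reads.

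The call for Onecut1 depended on single libraries. Its adjusted p in edgeR's quasi-likelihood test was 0.0602 without Vehicle replicate 1, 0.0760 without Vehicle replicate 3 and 0.0694 without FGF19 replicate 2, and it stayed under 0.05 in the other 3 fits that each left out a library. In the fits without those 3 libraries, 168, 107 and 91 of all genes were called lower, against 357 with every library. The log2 fold change was between -1.66 and -1.25 over these 6 fits. Over the 8 other settings, the adjusted p was between 5.77e-05 and 0.0320. Of the counted length of Onecut1, 342 bases (18.8%) overlap the gene Gm16551 of GENCODE vM1 on the same strand, and reads of either gene there cannot be told apart. ONECUT1 also marks bile duct cells, and in bulk liver fewer cells of a type and less RNA per cell cannot be told apart. The 6 cholangiocyte markers had a summed level from 72.0 to 89.4 CPM in Vehicle mice and from 55.7 to 86.0 CPM with FGF19. Of the 5 tested, 0 passed edgeR's quasi-likelihood test or DESeq2. At an unadjusted p under 0.05 there were also 0, against 11.6% of all genes higher and 11.3% lower. Their log2 fold changes were -0.51 (Epcam), -0.40 (Krt19), -0.40 (Krt7), -0.13 (Spp1) and 0.47 (Sox9). Most of the summed level was Spp1, while Krt19 was at most 2.01 CPM and Cftr at most 0.371 CPM. The part of bile duct cells in the fall of Onecut1 was not tested.

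Onecut1 was also set against the abundant factors of the same library. Per kilobase of exon, Onecut1 was 0.0209, 0.0122 and 0.0228 times the level of Cebpa in Vehicle replicates 1, 2 and 3, and 0.00953, 0.00720 and 0.00863 times in FGF19 replicates 1, 2 and 3. The groups did not overlap, and the mean log2 ratio differed by -1.10 (exact two-sided permutation test, p = 0.1, the smallest that 3 against 3 mice can give). Against Hnf4a the difference was -1.04 (exact two-sided permutation test, p = 0.2), since Vehicle replicate 2 was at 0.00953 and FGF19 replicate 1 at 0.00971. Both ratios were chosen after the values of Onecut1 had been seen, and neither depends on the scaling between libraries.

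Onecut2, the paralog of Onecut1, averaged 65.8 ± 19.4 CPM in the Vehicle group (SD, n = 3), and with FGF19 it averaged 54.2 ± 9.04 CPM (SD, n = 3). Its groups overlapped (log2 fold change -0.28, adjusted p = 0.458 in the same edgeR test). The difference between the changes of Onecut1 and Onecut2 was not tested. The genes whose profile over the 6 libraries was most like that of Onecut1 were Marcksl1-ps4, Akr1c19 and 9130409I23Rik, with a root mean square difference of centred log2 CPM of 0.166, 0.198 and 0.218. Akr1c19 went from 59.3 to 22.7 CPM, and in each of the 3 genes Vehicle replicate 2 was the lowest of the Vehicle mice, as it was for Onecut1. The 3 genes were picked for likeness over the same 6 libraries. Their fall and their low Vehicle replicate 2 follow from that choice. Marcksl1-ps4 is named as a pseudogene, and reads it shares with related sequences cannot be told apart.

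**Figure D2:**
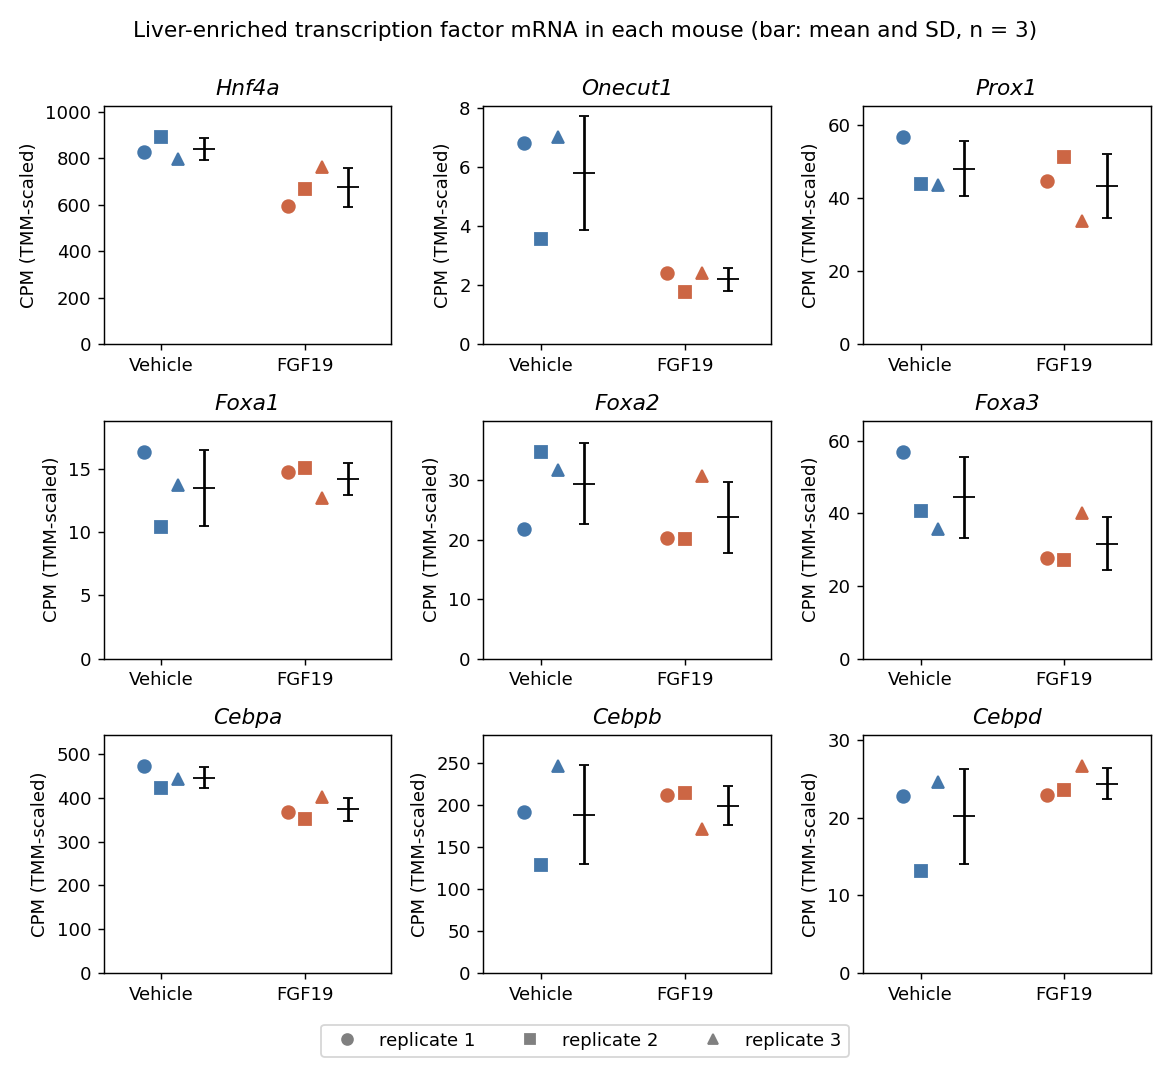
TMM-scaled CPM (y axis, from 0) of each member in each mouse, with the mean and SD of 3 mice beside the points. The groups are apart in Hnf4a, Onecut1 and Cebpa and overlap in the other 6.

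Hnf4a and Cebpa, the most abundant of the 9 by level per length in the Vehicle mice, were slightly lower in every FGF19-treated mouse than in every Vehicle mouse, and neither passed the adjusted threshold. Hnf4a lies on chromosome 2 from 163372924 to 163398643, with 10 counted exons. It was at 828, 891 and 798 CPM in Vehicle replicates 1, 2 and 3 and at 596, 666 and 765 CPM in FGF19 replicates 1, 2 and 3. FGF19 replicate 3 was close to the lowest Vehicle mouse. The log2 fold change was -0.31 (standard error 0.109, 95% interval -0.56 to -0.07, adjusted p = 0.1197 in edgeR's quasi-likelihood test), or 0.805 times the Vehicle level.

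Cebpa, a gene of 1 exon on chromosome 7 from 35904312 to 35906951, was at 472, 423 and 444 CPM in Vehicle replicates 1, 2 and 3 and at 368, 351 and 402 CPM in FGF19 replicates 1, 2 and 3. It varied least within groups, with a coefficient of variation of 5.56% in the Vehicle mice and 6.97% in the FGF19-treated mice. The log2 fold change was -0.26 (standard error 0.0908, 95% interval -0.46 to -0.05, adjusted p = 0.126 in the same edgeR test), or 0.838 times the Vehicle level. Without FGF19 replicate 3, the adjusted p was 0.0194 for Hnf4a and 0.0354 for Cebpa, so that both were then called lower. In that fit 926 of all genes were called lower and 1015 higher, against 357 and 573 with every library.

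The 3 FOXA genes did not pass the test. Foxa3, the most abundant of them and known for its part in glucose homeostasis during fasting, is on chromosome 7 from 19598632 to 19608888. It was at 57.0, 40.5 and 35.7 CPM in Vehicle replicates 1, 2 and 3 and at 27.6, 27.2 and 40.1 CPM in FGF19 replicates 1, 2 and 3. Of the FGF19-treated mice, replicates 1 and 2 were below every Vehicle mouse, and replicate 3 was within the Vehicle range. The log2 fold change was -0.49 (standard error 0.197, 95% interval -0.93 to -0.05, adjusted p = 0.173 in edgeR's quasi-likelihood test), and without FGF19 replicate 3 it was -0.69 (adjusted p = 0.0376).

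Foxa2, on chromosome 2 from 147868614 to 147872705, encodes a regulator of lipid and bile acid genes. It was at 21.8, 34.8 and 31.7 CPM in Vehicle replicates 1, 2 and 3 and at 20.3, 20.2 and 30.6 CPM in FGF19 replicates 1, 2 and 3. The groups overlapped, and the log2 fold change of -0.31 had a 95% interval from -0.77 to 0.15 (adjusted p = 0.417). Its promoter holds the HNF6 letters printed above. Foxa1, on chromosome 12 from 58641619 to 58647108, was at 16.3, 10.4 and 13.7 CPM in Vehicle replicates 1, 2 and 3. It was at 14.7, 15.0 and 12.7 CPM in FGF19 replicates 1, 2 and 3, within the Vehicle range. Its log2 fold change was 0.07, with a 95% interval from -0.30 to 0.44 (adjusted p = 0.847), and it was negative without Vehicle replicate 2. Of the summed FOXA level per length, Foxa3 made up 47.7% to 64.5% in Vehicle mice and 48.4% to 51.6% with FGF19. The log2 ratio of Foxa3 to Foxa2 did not separate the groups (difference -0.17, exact two-sided permutation test, p = 1), and its sign depended on 1 library, since the difference was 0.22 without Vehicle replicate 1.

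Prox1, on chromosome 1 from 191945658 to 191994559, was at 56.6, 43.9 and 43.5 CPM in Vehicle replicates 1, 2 and 3 and at 44.5, 51.2 and 33.8 CPM in FGF19 replicates 1, 2 and 3. The groups overlapped, and the log2 fold change of -0.15 had a 95% interval from -0.51 to 0.20 (adjusted p = 0.624 in edgeR's quasi-likelihood test). Of its counted length, 133 bases (3.22%) overlap Gm17566 on the opposite strand in GENCODE vM1. Among 4 lymphatic endothelial markers, Ccl21a was at 0 in every library and Pdpn and Mmrn1 were under 1 CPM. Flt4, which sinusoidal endothelium also expresses, carried nearly all of their summed level (32.5 to 33.8 CPM in the Vehicle mice and 26.4 to 27.8 CPM in the FGF19-treated mice).

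Cebpb and Cebpd, whose mRNAs are known to be induced by IL-6 in the acute phase response, did not pass the test at 6 h. Cebpb, a gene of 1 exon on chromosome 2 from 167514415 to 167515918, was at 191, 128 and 246 CPM in Vehicle replicates 1, 2 and 3. It was at 212, 214 and 172 CPM in FGF19 replicates 1, 2 and 3, inside the range of the Vehicle mice. The log2 fold change was 0.08 with a 95% interval from -0.37 to 0.53 (adjusted p = 0.856), which allows between 0.774 and 1.44 times the Vehicle level. Without Vehicle replicate 2 the sign turned, to -0.13. Cebpb had a coefficient of variation of 31.1% among Vehicle mice and 11.9% among FGF19-treated mice.

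Cebpd, a gene of 1 exon on chromosome 16 from 15887379 to 15889638, was at 22.7, 13.2 and 24.6 CPM in Vehicle replicates 1, 2 and 3. It was at 22.9, 23.5 and 26.6 CPM in FGF19 replicates 1, 2 and 3. Vehicle replicate 2 stood below the other 5 mice, and the log2 fold change of 0.27 had a 95% interval from -0.18 to 0.72 (adjusted p = 0.476). Without that library it was 0.040. Cebpb shares 312 bases (20.7%) with Tmem189 and Cebpd shares 319 bases (14.1%) with 2310008H04Rik, both on the opposite strand in GENCODE vM1, and the counting did not use strand, so reads of these stretches cannot be told apart. 2310008H04Rik is also in the count annotation, and Tmem189 does not overlap Cebpb there. The counted length of Cebpd, 2260 bases, exceeds its 1180 exon bases in GENCODE vM1, so its RPKM, its rank and the size of its ratio to Cebpa depend on the annotation, while a difference of log2 ratios between groups is not altered by the length used. Because both genes are also expressed by myeloid cells, their values stand beside myeloid markers. The 7 neutrophil and myeloid precursor markers measured had a summed level from 2.48 to 3.87 CPM in Vehicle mice and from 6.29 to 9.28 CPM with FGF19. Of the 3 tested, 1 was called higher (S100a9, against 4.56% of all genes) and 0 lower (2.84%). Mpo was at or under 3 reads in every library. The 7 Kupffer cell and macrophage markers measured had a summed level from 182 to 227 CPM in Vehicle mice and from 186 to 221 CPM with FGF19. Of these 7, 2 were called higher (Cd68 and Marco, against 4.56% of all genes) and 0 lower (2.84%). DESeq2 and the likelihood ratio test each called 1 of these 7 lower, beside 519 and 579 of all genes. In edgeR's quasi-likelihood fit the 5 not called had log2 fold changes of -0.54 (Vsig4), -0.29 (Clec4f), -0.22 (Cd5l), 0.04 (Csf1r) and 0.09 (Timd4). The part of these cells in the C/EBP levels was not tested.

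The C/EBP genes were also compared with each other within each library. By level per length, Cebpb was 0.709, 0.533 and 0.971 times Cebpa in Vehicle replicates 1, 2 and 3 and 1.01, 1.07 and 0.748 times in FGF19 replicates 1, 2 and 3. The groups overlapped (difference of the mean log2 ratio 0.38, exact two-sided permutation test, p = 0.2). Cebpd was 0.0562, 0.0365 and 0.0648 times Cebpa in Vehicle replicates 1, 2 and 3 and 0.0727, 0.0782 and 0.0773 times in FGF19 replicates 1, 2 and 3. Here every FGF19-treated mouse was above every Vehicle mouse (difference 0.58, exact two-sided permutation test, p = 0.1, the smallest that this design can give). Without Vehicle replicate 2 the difference was 0.33. The 3 genes together were at 303 ± 46.8 RPKM (reads per kilobase of counted exon, TMM-scaled) in the Vehicle group (SD, n = 3), and with FGF19 at 285 ± 5.94 RPKM (SD, n = 3).

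**Figure D3:**
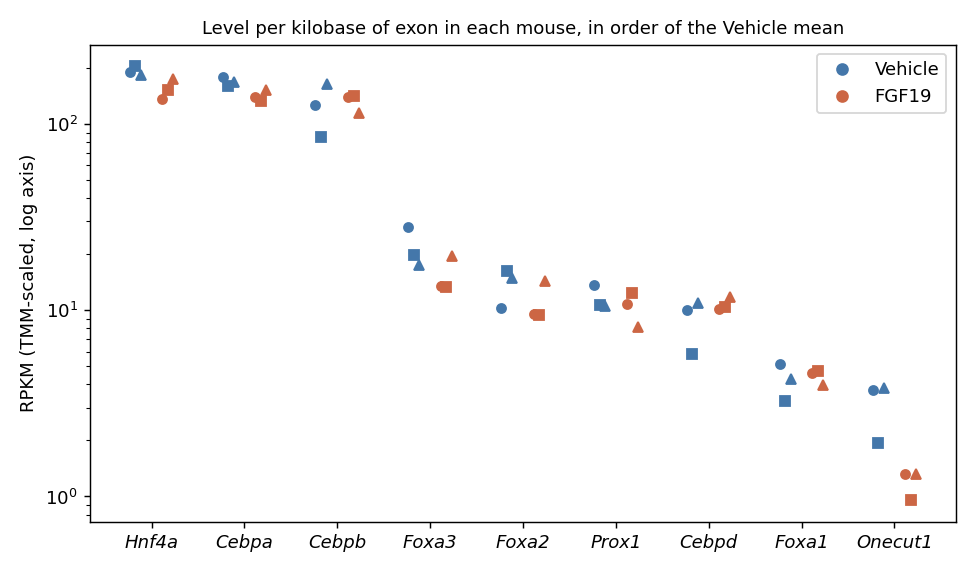
Level of each member in RPKM (log axis, TMM-scaled) in each of the 6 mice, ordered by the Vehicle mean, with circles, squares and triangles for replicates 1, 2 and 3. Hnf4a, Cebpa and Cebpb lie at or above 85.4 RPKM in every mouse, and Onecut1 has the lowest mean of the 9 in both groups.

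In level per length, Hnf4a, Cebpa and Cebpb stood above the other 6 members in every mouse. In the Vehicle mice the order of mean RPKM was Hnf4a (193), Cebpa (169), Cebpb (125), Foxa3 (21.8), Foxa2 (13.8), Prox1 (11.6), Cebpd (8.93), Foxa1 (4.23) and Onecut1 (3.18). Among neighbours in this order, the ranges of Cebpa and Cebpb, Foxa2 and Prox1, Prox1 and Cebpd, and Foxa1 and Onecut1 overlapped. In the FGF19-treated mice the means ran Hnf4a (155), Cebpa (142), Cebpb (132), Foxa3 (15.5), Foxa2 (11.2), Cebpd (10.8), Prox1 (10.4), Foxa1 (4.44) and Onecut1 (1.20). There each of the neighbours down to Prox1 overlapped except Cebpb and Foxa3, and Foxa1 stood apart from both Prox1 and Onecut1. Hnf4a was at the 97.2 percentile of the genes tested by Vehicle RPKM and Onecut1 at the 39.9 percentile.

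The other genes around these factors were examined as 9 lists of textbook members, which overlap in part. Of 13 other hepatocyte transcription factors tested, 0 passed the test (median log2 fold change -0.11). DESeq2 also called 0, and at an unadjusted p under 0.05 there were 1 higher (11.6% of all genes) and 1 lower (11.3%). The lowest p was that of Creb3l3, the gene of a membrane-bound factor activated in fasting. Its mean was 392 ± 33.7 CPM in the Vehicle group (SD, n = 3), and with FGF19 it was 483 ± 37.2 CPM (SD, n = 3, adjusted p = 0.102). Of 10 relatives of the C/EBP genes and other basic leucine zipper genes, 2 were lower (2.84% of all genes) and 0 higher (4.56%). The groups did not overlap in 5 of the 10, with 3 all below (13.8% of all genes) and 2 all above (14.5%). The 2 called were Dbp and Tef, which encode clock-controlled factors of the PAR group. Dbp was at 27.9, 16.4 and 24.9 CPM in Vehicle replicates 1, 2 and 3 and at 5.30, 5.93 and 11.7 CPM in FGF19 replicates 1, 2 and 3 (log2 fold change -1.59, adjusted p = 0.0128). Tef had a log2 fold change of -0.84 (adjusted p = 0.00596), and in both genes the groups did not overlap.

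Among 10 cofactors and inhibitors, 2 were higher (4.56% of all genes) and 0 lower (2.84%). The groups did not overlap in 3 of the 10, with 2 all above (14.5% of all genes) and 1 all below (13.8%). Nr0b2 encodes SHP, an orphan receptor without a DNA binding domain that represses HNF4A and other nuclear receptors. It was at 13.9, 21.8 and 30.9 CPM in Vehicle replicates 1, 2 and 3 and at 64.5, 54.5 and 54.8 CPM in FGF19 replicates 1, 2 and 3 (log2 fold change 1.38, standard error 0.232, adjusted p = 0.00823). Trib1 encodes a pseudokinase adaptor through which C/EBPα protein is degraded, and it was at 54.7, 50.9 and 44.1 CPM in Vehicle replicates 1, 2 and 3 and at 84.7, 88.7 and 73.4 CPM in FGF19 replicates 1, 2 and 3 (log2 fold change 0.72, adjusted p = 0.00497). In Nr0b2 and Trib1 the groups did not overlap.

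Of 8 genes of IL-6 and STAT3 signalling, which acts upstream of Cebpb and Cebpd, 1 was higher (4.56% of all genes) and 0 lower (2.84%), and at an unadjusted p under 0.05 there were 1 higher (11.6%) and 1 lower (11.3%). The called gene was Stat3 itself (98.7 ± 8.66 CPM in the Vehicle group and 139 ± 10.4 CPM with FGF19, SD, n = 3, log2 fold change 0.49, adjusted p = 0.0172). Socs3, a feedback target of STAT3, averaged 10.9 ± 5.19 CPM in the Vehicle group and 13.8 ± 2.27 CPM with FGF19 (SD, n = 3) and did not pass (adjusted p = 0.579). The gene lower at the unadjusted threshold was Il6ra, the IL-6 receptor gene, with a log2 fold change of -0.42 that did not pass the adjusted threshold (adjusted p = 0.157). Of 12 genes of the fasting, cyclic AMP and glucocorticoid response (shares over all genes again 4.56% higher and 2.84% lower), 1 was higher (Nr4a1, an immediate early orphan receptor, log2 fold change 1.52, adjusted p = 0.0494, not called by limma-voom) and 1 was lower (Sds, serine dehydratase, -0.42, adjusted p = 0.0328). Pck1, the gluconeogenic enzyme gene that both C/EBPα and C/EBPβ bind, had a log2 fold change of 0.10 (adjusted p = 0.737).

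Genes known as targets of the members were read in 4 of these lists. Of 13 HNF4A targets, 1 was lower (2.84% of all genes) and 0 higher (4.56%), with a median of -0.17. DESeq2 called 2 lower and 0 higher, and at an unadjusted p under 0.05 there were 4 lower (11.3% of all genes) and 0 higher (11.6%). In 4 of the 13 the FGF19-treated mice all lay below the Vehicle mice (13.8% of all genes), and in 1 they all lay above (14.5%). The lower one was Cyp8b1, the sterol 12-alpha-hydroxylase of bile acid synthesis, with 1275 ± 80.4 CPM in the Vehicle group and 791 ± 109 CPM with FGF19 (SD, n = 3, log2 fold change -0.69, adjusted p = 0.00855). Of 9 FOXA targets measured, 0 passed the test (median -0.06), as with DESeq2, and 1 was higher (11.6% of all genes) and 1 lower (11.3%) at an unadjusted p under 0.05, with the lowest p for Cps1 of the urea cycle (log2 fold change -0.35, adjusted p = 0.125). Of 12 metabolic targets of C/EBPα, 0 passed (median -0.10), while DESeq2 called 1 lower, and at an unadjusted p under 0.05, which 11.6% of all genes met in the higher and 11.3% in the lower direction, 1 was higher and 3 were lower. The lowest p was that of Otc, also of the urea cycle (370 ± 10.8 CPM in the Vehicle group and 305 ± 15.3 CPM with FGF19, SD, n = 3, adjusted p = 0.0769). Of 16 acute phase genes listed as bound by C/EBPβ and C/EBPδ, 16 were higher (4.56% of all genes) and 0 lower (2.84%), with a median of 1.48. Saa2 changed most (log2 fold change 8.28). The list was chosen with earlier results of these data known, and binding was not measured. These 16 were measured in the same libraries in which Cebpb and Cebpd did not pass. All 9 medians stand beside a median of -0.00076 over the genes tested.

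**Figure D4:**
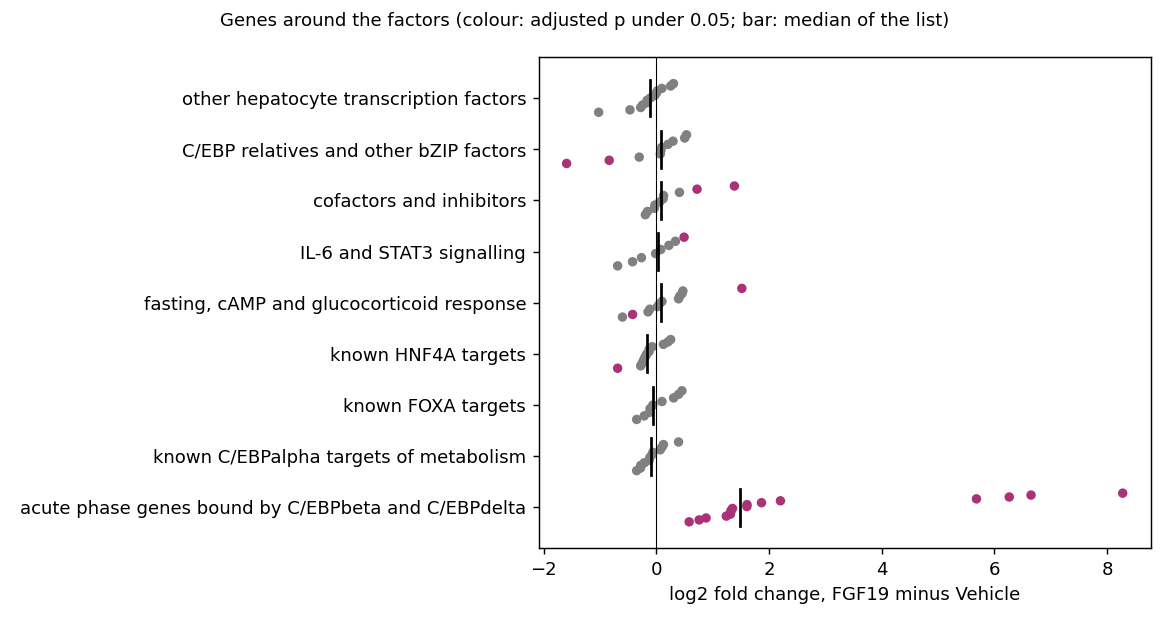
Log2 fold change (FGF19 minus Vehicle, x axis) of each tested gene in the 9 lists, with 1 point a gene, the median of a list as a bar, and genes with an adjusted p under 0.05 in colour. The 16 acute phase genes lie to the right of 0, and the other 8 lists have medians between -0.17 and 0.09.

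Total counts ran from 18994654 to 22920056 per library. If counts were independent, a gene at 0 could hold up to 3 counts by counting error alone, which is 0.136 to 0.159 CPM. Mates of a pair were counted separately, so counts are not independent and this bound is too low. Of the 9 hepatocyte markers measured, 1 was called higher (4.56% of all genes) and 0 lower (2.84%). The called marker was Fgb, which is also an acute phase gene. DESeq2 called 1 higher and 1 lower, and at an unadjusted p under 0.05 there were 2 higher (11.6% of all genes) and 3 lower (11.3%), the latter Cps1 (log2 fold change -0.35), Ass1 (-0.36) and Hpd (-0.41). Their sum ran from 108028 to 113903 CPM in Vehicle mice and from 107043 to 118974 CPM with FGF19. Of 6 stellate cell markers and 6 sinusoidal endothelial markers, 0 were called by edgeR's quasi-likelihood test, DESeq2 called 1 sinusoidal marker lower, the likelihood ratio test called 1 of each kind lower, and at an unadjusted p under 0.05 there were 1 higher (11.6% of all genes) and 2 lower (11.3%) among the 12. Adipocyte markers (3) and 3 of 4 pancreatic acinar markers were at or under 3 reads in every library. No pair of libraries held counts alike enough to be 1 library deposited more than once (chi-square statistic per degree of freedom over genes of at least 8.68).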

How the data were processed

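Liver RNA of 6 mice was sequenced as paired-end reads. The authors trimmed with Trimmomatic 0.36 and aligned with STAR to mm9 (per the labels). The deposited values are raw counts of reads on exons, which the authors made with featureCounts 1.5.2 without strand, with mates of a pair counted separately and reads of several places left out. A deposited table of the authors' own comparison (log2 fold changes, mean log2 CPM, p-values and FDR) was not used.

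The analysis ran in R 4.3.3 and used edgeR 4.0.16. The filterByExpr function left 12559 of 23284 genes, which were scaled by TMM and compared (3 FGF19, 3 Vehicle, no covariate) by the quasi-likelihood test. P-values were adjusted by Benjamini-Hochberg over the genes tested, with calls at 0.05. The threshold of the study, p under 0.01, was an alternative. Standard errors were taken as the log2 fold change over the square root of F, and 95% intervals from the t distribution with the fit's degrees of freedom. RPKM is TMM-scaled CPM per kilobase of counted exon. Ratios were compared by exact permutation, which cannot go below p = 0.1. The labels do not say how the mice were housed or processed, so p-values measure the spread between these mice.

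Named genes were the 9 members, the largest called rise and fall of each list (or the lowest p where none was called), and the 3 genes nearest in profile to a called member, at a mean of at least 1 CPM. Onecut2, Hhex, Tef, Trib1, Il6ra, Socs3, Pck1 and the cell type markers given by name were named outside this rule, after their values were seen. The members and lists were chosen with earlier results of these data known, and no list was tested as a set. Alternatives were DESeq2 1.42.0, no TMM scaling, upper quartile scaling, no filter, a stricter filter (every library at 1 CPM or more), the likelihood ratio test, limma-voom (limma 3.58.1), the replicate number as a block, and each library left out. The fits were tested on simulated data.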

Additional observations from a re-analysis of the deposited data

How the results depend on the processing

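Scaling, filters, DESeq2, limma-voom, the likelihood ratio test and the replicate block kept Onecut1 as the 1 member called lower, with 0 called higher. With each library left out in turn, between 0 and 4 members were called lower (0 without Vehicle replicate 1, Vehicle replicate 3 or FGF19 replicate 2, and 4 without FGF19 replicate 3, which were Onecut1, Hnf4a, Foxa3 and Cebpa) and 0 higher. The fit without FGF19 replicate 3 also gave the highest counts over all genes among these 6 fits, 926 lower and 1015 higher. Without Vehicle replicate 2, the log2 fold change of Foxa1 turned to -0.086 and that of Cebpb to -0.13, and with each library left out they ran from -0.086 to 0.23 and from -0.13 to 0.32. The signs of the other 7 members held in every setting run.

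Over all genes, the likelihood ratio test called 780 higher and 579 lower, and p under 0.01 gave 779 higher and 626 lower. With the replicate block there were 370 higher and 164 lower, against 573 and 357 without it. With each library left out there were between 236 and 1015 higher and between 91 and 926 lower. The numbers did not pair the mice, since deviations of same-numbered libraries correlated at -0.05, -0.23 and -0.21 over genes and no library correlated best with its own number. The cause of these shifts was not tested. The scalings moved the median of all genes to between -0.0053 and 0.0082.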

Other observations

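FGF19 replicate 3 was the highest of the FGF19-treated mice for Hnf4a (765 CPM), Foxa2 (30.6 CPM), Foxa3 (40.1 CPM), Cebpa (402 CPM) and Cebpd (26.6 CPM), and the lowest for Prox1 (33.8 CPM), Foxa1 (12.7 CPM) and Cebpb (172 CPM). It was also the highest for Dbp (11.7 CPM), Tef (83.7 CPM) and Hhex (84.2 CPM). Hhex, a homeobox gene of liver bud formation, was at 140, 84.5 and 66.1 CPM in Vehicle replicates 1, 2 and 3 and at 22.98 and 35.8 CPM in FGF19 replicates 1 and 2 (log2 fold change -1.02, adjusted p = 0.188 in edgeR's quasi-likelihood test). These genes were chosen after their values were seen, and the cause was not tested.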
